A study of Rattus norvegicus with 24 samples.

Results

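Translation initiation factor genes were followed in peripheral blood mononuclear cells (PBMC) of rats with and without collagen-induced arthritis. A gene was a member if its symbol began with Eif and a number and it had a probe set that matched this gene alone. The kinases of eIF2, whose symbols begin with Eif2ak, were left out of the members. This gave 45 of the 14218 genes so named on the array, with 70 probe sets, and the brightest probe set stood for each gene. All 45 symbols were found in RefSeq. Of the members 44 passed the filter on low values and were tested.

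PBMC of female Wistar rats had been isolated on a Ficoll gradient and hybridised to a whole-genome rat expression array (Affymetrix). There were 24 arrays in 12 groups of 2, each array from a separate rat, so differences between rats and technical differences cannot be told apart. Arthritis (CIA) was induced with bovine type II collagen, and NOCIA rats were healthy (NORA in the labels). NOCIA and CIA rats were sampled at baseline, before any therapy. The other groups were sampled 1 hour and 34 days after therapy began. The therapy arms were all CIA rats: MS (AP in the labels) received mechanical stimulation by needles at 4 points of back and leg, MTX weekly peritoneal methotrexate, and PLA saline injection. ANE rats had isoflurane in place of ether as anaesthetic at sampling and no other therapy. NOCIA rats were untreated at 1 hour and 34 days. The 34-day groups of CIA rats were set against CIA baseline, so arm, time and disease course cannot be told apart within one such comparison.

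Translation initiation loads a ribosome onto a messenger RNA and places the initiator tRNA at the start codon. eIF2 carries the initiator tRNA and is recharged by its exchange factor eIF2B. eIF1 and eIF1A guide scanning for the start codon, eIF3 is the large scaffold on the small ribosomal subunit, and the eIF4 proteins bind the cap and unwind the leader. eIF4E-binding proteins hold the cap-binding protein eIF4E back until mTOR phosphorylates them. Stress kinases phosphorylate eIF2, which lowers general initiation and favours the translation of Atf4, the transcription factor of the integrated stress response. Lymphocytes raise their initiation factors when they are activated.

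The deposited values are log2 levels, and every difference below is a log2 difference of group means with its SE, n = 2 arrays per group. Replicates 1 and 2 are the arrays of a group in the labels' order. Since each array is a separate rat, a rise, fall or change over 34 days is a difference between groups, not within a rat. A gene was called at a limma adjusted p under 0.05 over all 20690 probe sets tested. In bulk PBMC, fewer cells of a type and less RNA per cell cannot be told apart.

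Levels of probe sets are not comparable between genes, so levels are given only to show where each gene lay on the scale. The brightest member was Eif3h, a subunit of eIF3, which lay between 11.03 and 12.54. Its lowest arrays were replicate 1 of MS at 34 days (11.03) and at 1 hour (11.48). The dimmest was Eif2s3y, the Y-linked gene of the gamma subunit of eIF2, which lay between 2.23 and 2.58 on the 24 arrays of female rats and did not pass the filter. Its X-linked partner Eif2s3 lay between 9.56 and 10.59. Markers of the labelled cells were measured, with the T cell genes Cd3e between 9.74 and 11.97 and Cd3g between 10.50 and 12.59. The monocyte gene Lyz2 lay between 12.90 and 14.55, the platelet gene Pf4 between 14.22 and 14.71 and the erythroid gene Hbb between 14.56 and 14.86. Platelet markers (mean of 18 genes, centred on 24 arrays) were highest in 4 arrays, at 1.45 in MS 34-day replicate 1, 1.25 in MS 1-hour replicate 1, 1.02 in PLA 1-hour replicate 2 and 0.95 in ANE 1-hour replicate 1. The next array was at 0.52. These 4 arrays were known from an earlier analysis of the same data to stand apart, and values without them are given where a result changes.

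Most initiation factor genes were low in 2 arrays, replicate 1 of MS at 34 days and at 1 hour. Over 24 arrays the SD of a member's level ran from 0.13 (Eif4ebp3) to 0.52 (Eif4ebp1), with a median of 0.33, and the median was 0.18 without the 4 arrays. Of the 44 tested members 31 had their lowest level in MS 34-day replicate 1, and 12 had their highest in NOCIA 34-day replicate 1. Relative to each gene's own mean over the arrays, the median of the members was -0.91 in MS 34-day replicate 1 and -0.61 in MS 1-hour replicate 1. In the other 22 arrays it lay between -0.28 and 0.27. Over all probe sets tested the median was -0.24 in MS 34-day replicate 1 and -0.16 in MS 1-hour replicate 1. T cell markers (mean of 17 genes) lay at -1.43 and -0.88 in those 2 arrays, beside platelet markers at 1.45 and 1.25. Monocyte markers lay at -1.24 and -0.92 there, NK cell markers at -1.43 and -0.58, B cell markers at -1.29 and 0.10 and neutrophil markers at -1.11 and 0.13. The part of cell composition in these levels was not tested.

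**Figure D1:**
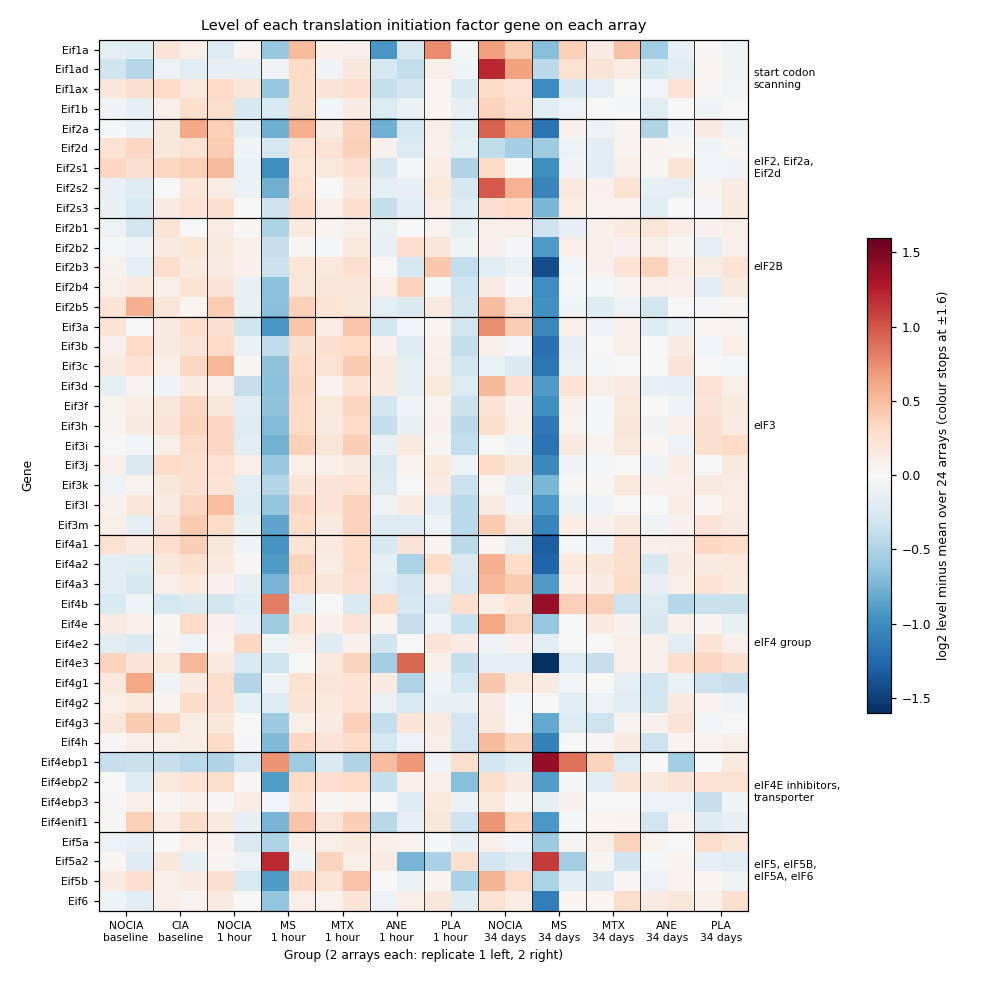
Log2 level of each of the 44 tested genes (rows, grouped by role) on each of the 24 arrays (columns, 2 per group), minus the gene's mean over the arrays, with red above and blue below the mean. Replicate 1 of MS was below the mean for 40 of 44 genes at 34 days and for 41 at 1 hour, with Eif4b, Eif4ebp1 and Eif5a2 above it both times, and Eif1ad was highest in NOCIA at 34 days.

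To ask what the arm looked like at the end of therapy, MS rats at 34 days were compared with CIA rats at baseline. The inhibitor gene Eif4ebp1, which encodes the eIF4E-binding protein 4E-BP1, rose, and it was the only one of 44 members called. Most other members lay lower in MS: 39 of 44 were below 0, with a median of -0.62, beside 58.49% of all probe sets below 0 and their median of -0.16. None of those 39 was called. Over all probe sets tested 6.96% were called in this comparison, so the 1 call among 44 members was below that background.

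Eif4ebp1 lay at 10.92 and 10.37 in the MS arrays at 34 days and at 9.14 and 9.07 in the CIA baseline arrays. Both MS arrays were higher than both baseline arrays and than each of the other 22 arrays. The difference was 1.54 ± 0.33 (95% interval 0.84 to 2.23, adjusted p = 0.0287), a 2.90-fold higher level. The call was lost without MS replicate 1 (1.27, adjusted p = 0.381), without CIA replicate 1 (1.57, 0.197) or replicate 2 (1.50, 0.179). With all 4 arrays that stood apart left out together, the difference was 1.27 with an adjusted p = 0.0453. It was not called with array weights (adjusted p = 0.200) or with only the 2 groups fitted (0.342).

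Elsewhere Eif4ebp1 was at 9.14 and 9.15 in NOCIA baseline, 9.03 and 9.20 in NOCIA at 1 hour and 9.20 and 9.31 in NOCIA at 34 days. No healthy array was above 9.31. At 1 hour it was at 10.23 and 8.93 in MS, 9.27 and 9.02 in MTX, 10.00 and 10.19 in ANE, and the PLA arrays lay at 9.45 and 9.78. At 34 days it was at 9.86 and 9.28 in MTX, 9.50 and 8.96 in ANE and 9.50 and 9.66 in PLA. The MS arrays at 1 hour lay far apart, one above and one below the CIA baseline arrays. Both ANE arrays at 1 hour were higher than both baseline arrays. Their marker means were 0.95 and -0.37 for platelets, -1.23 and 1.88 for neutrophils and -1.26 and 0.94 for monocytes. The part of these cells in the level of Eif4ebp1 was not tested.

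Genes that bind the cap and unwind the leader split in MS at 34 days. Eif4b, the helper of the helicase eIF4A, lay at 12.36 and 11.35 in MS and at 10.69 and 10.74 in CIA baseline, so that both MS arrays were the higher. The difference was 1.14 ± 0.34 and missed the threshold (adjusted p = 0.0536). A second probe set of Eif4b, at 12.20 and 11.27 against 10.68 and 10.36, differed by 1.21 ± 0.33 and was called (adjusted p = 0.0454). High levels of the brighter probe set were not limited to MS at 34 days. MTX 34-day replicate 1 lay at 11.35 and NOCIA at 34 days at 11.08 and 11.19. At 1 hour MS replicate 1 lay at 11.78, ANE replicate 1 at 11.28 and PLA replicate 2 at 11.24. Every other array outside MS at 34 days was at 10.96 or lower. Without MS replicate 1 the brighter probe set differed by 0.64 and without replicate 2 by 1.65. With a replicate block it was called at an adjusted p = 0.0440, but the replicate numbers do not pair the rats. That setting called 9.45% of all probe sets, against 6.96% in the main run.

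Eif4e3, a cap-binding relative of eIF4E, had the lowest difference among the members. It lay at 6.09 and 7.45 in MS against 7.83 and 8.19 in CIA baseline, and both MS arrays were the lower. The difference was -1.24 ± 0.42 (adjusted p = 0.0655). Eif4a1, the main helicase, lay at 10.48 and 11.76 against 12.08 and 12.19, a difference of -1.01 ± 0.36 (adjusted p = 0.0730). Of the 11 members of the eIF4 group 9 were below 0 (median -0.55), and the exceptions were Eif4b and the scaffold Eif4g1 (0.02 ± 0.25). Eif4e itself differed by -0.47 ± 0.26 at its brightest probe set. Another of its probe sets lay higher in MS (6.41 and 6.52 against 5.49 and 6.27), and another overlapped (5.86 and 6.38 against 6.19 and 6.33).

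All 11 measured eIF3 genes lay below 0 in MS at 34 days, from Eif3b (-0.85 ± 0.29) to Eif3d (-0.38 ± 0.33), with a median of -0.75 and 0 called. Of them 8 passed an unadjusted p under 0.05. Eif3b lay at 8.04 and 9.09 in MS and at 9.38 and 9.45 in CIA baseline, Eif3d at 9.13 and 10.25 against 9.98 and 10.16. The groups did not overlap for Eif3b and did for Eif3d, whose MS replicate 2 was above both baseline arrays. A dimmer probe set of Eif3h lay higher in MS, at 6.01 and 6.05 against 5.62 and 5.91. Over all members 23 other probe sets were tested in this comparison. Of these 15 had the same sign as the brightest and 8 the opposite, 0 of the latter called.

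The eIF2 and eIF2B genes, which deliver the initiator tRNA and recharge its carrier, were also all below 0. The 5 genes of the eIF2 group ran from Eif2a (-0.94 ± 0.40) to Eif2s3 (-0.49 ± 0.25). Eif2s1, the alpha subunit that the stress kinases phosphorylate, differed by -0.89 ± 0.34. The 5 eIF2B genes ran from Eif2b3 (-0.95 ± 0.34), which lay at 6.02 and 7.39 against 7.73 and 7.59, to Eif2b1 (-0.34 ± 0.19). Among the start codon factors Eif1ax was lower (8.58 and 9.33 against 9.89 and 9.75), by -0.86 ± 0.26 (adjusted p = 0.0533). It was called with a replicate block (adjusted p = 0.0476), which called 9.45% of all probe sets although the replicate numbers do not pair the rats. Eif1ad, listed in that group and encoding a protein with an eIF1A-like domain, was close to 0 (0.04 ± 0.22). The late factors were Eif5a (-0.33 ± 0.21), an elongation helper despite its name, its relative Eif5a2 (0.27 ± 0.46), the joining factor Eif5b (-0.45 ± 0.31) and Eif6 (-0.61 ± 0.29), which keeps the large subunit apart. The remaining cap-control genes were Eif4ebp2 (-0.65 ± 0.35), Eif4ebp3 (-0.10 ± 0.16) and the eIF4E transporter Eif4enif1 (-0.68 ± 0.34).

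The size of the members' difference in MS at 34 days rested on 1 array. Both MS arrays were lower than both CIA arrays for 32 of 44 members, against 38.4% of all probe sets, and both were higher for 2 members, Eif4b and Eif4ebp1, against 25.2%. An unadjusted p under 0.05 was reached by 18 members that were lower and 2 that were higher, against 37.1% of all probe sets. The members' median difference from CIA baseline was -1.08 in MS replicate 1 and -0.19 in replicate 2, with 40 and 36 of 44 members below the baseline mean. Over all probe sets those medians were -0.28 and -0.04. Without MS replicate 2, 35 of 44 members and 48.1% of all probe sets were called, and without replicate 1, 0 members and 0% of all probe sets. In replicate 1 platelet markers stood at 1.45 and T cell, B cell and NK cell markers at -1.43, -1.29 and -1.43, and in replicate 2 at 0.52, -0.17, -0.67 and -0.56. Monocyte, neutrophil and erythroid markers stood at -1.24, -1.11 and -0.40 in replicate 1 and at -0.04, -0.62 and 0.07 in replicate 2. In the CIA baseline arrays platelet markers were at -0.47 and -0.70 and T cell markers at 0.41 and 0.47. The part of these cells in the members' levels was not tested.

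**Figure D2:**
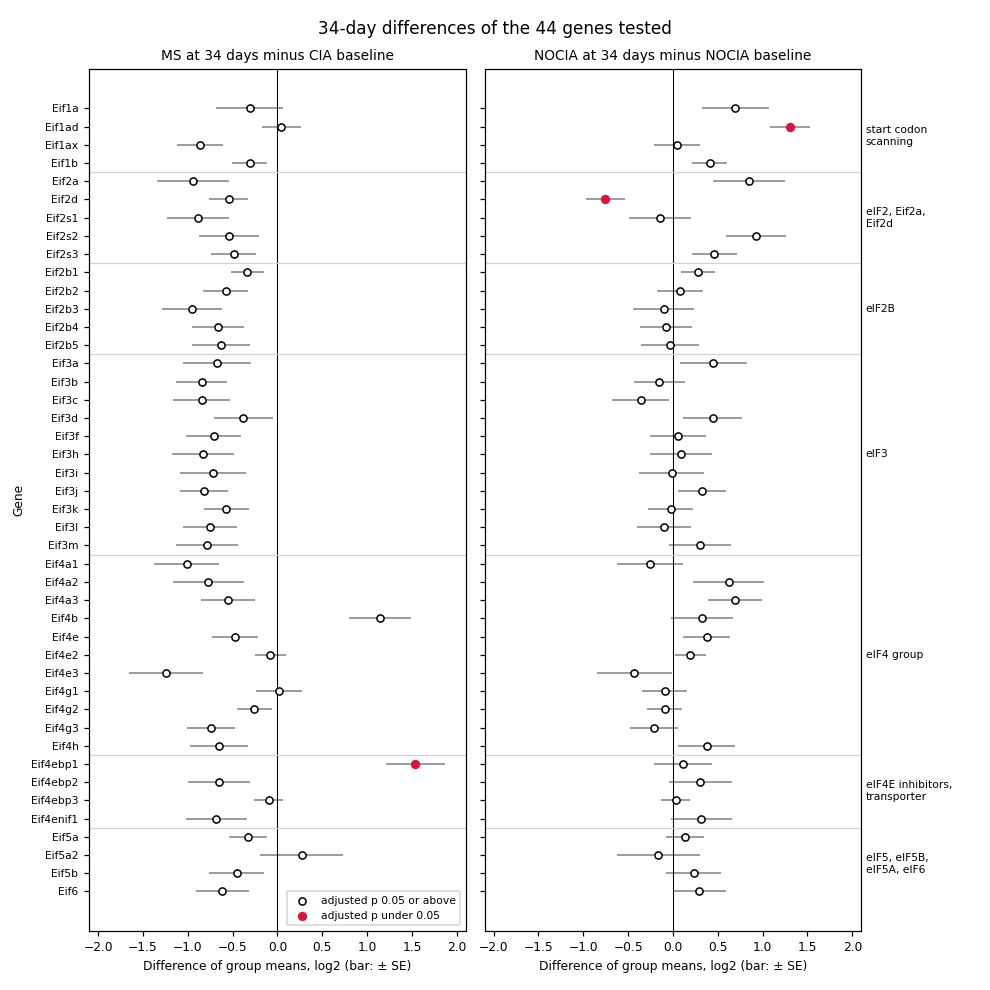
Log2 difference of group means with its SE (horizontal axis) for each of the 44 genes by role (vertical axis), in MS at 34 days minus CIA baseline (left) and NOCIA at 34 days minus NOCIA baseline (right), n = 2 arrays per group. Red points passed an adjusted p under 0.05: Eif4ebp1 (1.54) on the left, Eif1ad (1.30) and Eif2d (-0.75) on the right.

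The difference between arms at 34 days was tested directly. MS minus PLA had a member median of -0.50, with 39 of 44 below 0, beside 60.96% of all probe sets below 0 and their median of -0.15. Eif4b was at 12.36 and 11.35 in MS and at 10.61 and 10.61 in PLA, a difference of 1.25 ± 0.34. Eif4e3 was lowest, at 6.09 and 7.45 against 7.99 and 7.93 (-1.19 ± 0.42). Groups did not overlap for either gene, and each had an adjusted p = 0.179. Called were 0 members and 0% of all probe sets, and an unadjusted p under 0.05 was reached by 10 members that were lower and 2 that were higher, against 23.2% of all probe sets. Without MS replicate 1 the median was -0.09.

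MS minus MTX had a member median of -0.48, with Eif4ebp1 highest (10.92 and 10.37 against 9.86 and 9.28, 1.07 ± 0.33) and Eif2b3 lowest (6.02 and 7.39 against 7.51 and 7.65, -0.87 ± 0.34). The groups did not overlap for either gene. Again 0 members and 0% of all probe sets were called (adjusted p = 0.327 for both genes), and 5 lower and 2 higher members had an unadjusted p under 0.05, against 14.4%. Without MS replicate 1 the median was -0.04. MTX minus PLA had a median of -0.01 and a range from -0.42 (Eif4e3) to 0.39 (Eif4b), with 0 members and 0% of all probe sets called and 0 members at an unadjusted p under 0.05, against 0.739%.

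The other arms at 34 days showed small differences from CIA baseline. The member median was -0.14 in MTX, -0.17 in ANE and -0.12 in PLA, and 32, 40 and 35 of 44 members were below 0. Over all probe sets 51.23%, 55.65% and 52.73% were below 0. Eif4ebp1 was the highest member in each, at 0.46 ± 0.33, 0.12 ± 0.33 and 0.47 ± 0.33. The lowest were Eif4e3 in MTX (7.30 and 7.77 against 7.83 and 8.19, -0.48 ± 0.42), Eif2a in ANE (8.02 and 8.45 against 8.68 and 9.11, -0.66 ± 0.40) and Eif2s1 in PLA (9.47 and 9.45 against 9.84 and 9.89, -0.41 ± 0.34). In each of these pairs the arm lay below baseline in both arrays. limma called 0 members and 0% of all probe sets in each arm, and 0 members had an unadjusted p under 0.05, against 5.85% of all probe sets in MTX, 1.48% in ANE and 4.85% in PLA.

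NOCIA at 34 days was set against NOCIA baseline to compare healthy rats of both times. Eif1ad rose and Eif2d fell. Eif1ad encodes a protein with an eIF1A-like domain, and Eif2d a factor that can deliver tRNA to the ribosome without eIF2 and helps recycle ribosomes. The 2 calls among 44 members stood beside 12% of all probe sets called. Over all 44 members the median was 0.12, with 28 above and 16 below 0, beside 51.90% of all probe sets below 0.

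Eif1ad lay at 9.90 and 9.34 in NOCIA at 34 days and at 8.39 and 8.25 at baseline. Both 34-day arrays were above each of the other 22 arrays, whose highest value was 9.01 (MS 1-hour replicate 2). The difference was 1.30 ± 0.22 (95% interval 0.84 to 1.77, adjusted p = 0.00164), a 2.47-fold higher level. Of the named members called in this comparison, Eif1ad was the one that stayed called in each alternative run.

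In the arthritic rats Eif1ad was at 8.61 and 8.53 in CIA baseline. At 34 days it was at 8.28 and 8.94 in MS, 8.91 and 8.82 in MTX, 8.45 and 8.53 in ANE and 8.73 and 8.63 in PLA. The 1-hour levels were 8.57 and 8.57 in NOCIA, 8.65 and 9.01 in MS, 8.64 and 8.89 in MTX, 8.42 and 8.30 in ANE and 8.80 and 8.64 in PLA. No array of the arthritic rats was above 9.01.

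Eif2d lay at 7.83 and 7.70 in NOCIA at 34 days and at 8.47 and 8.57 at baseline, without overlap. It fell by 0.75 on the log2 scale, with an SE of 0.22 (adjusted p = 0.0319). The call was lost without any 1 of the 4 arrays (adjusted p = 0.113 to 0.187), with differences from -0.82 to -0.69. In CIA rats Eif2d was at 8.42 and 8.49 at baseline, and at 34 days at 7.67 and 8.15 in MS, 8.05 and 8.29 in MTX, 8.29 and 8.26 in ANE and 8.18 and 8.29 in PLA. All 8 arrays of the arms at 34 days lay below both CIA baseline arrays.

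**Figure D3:**
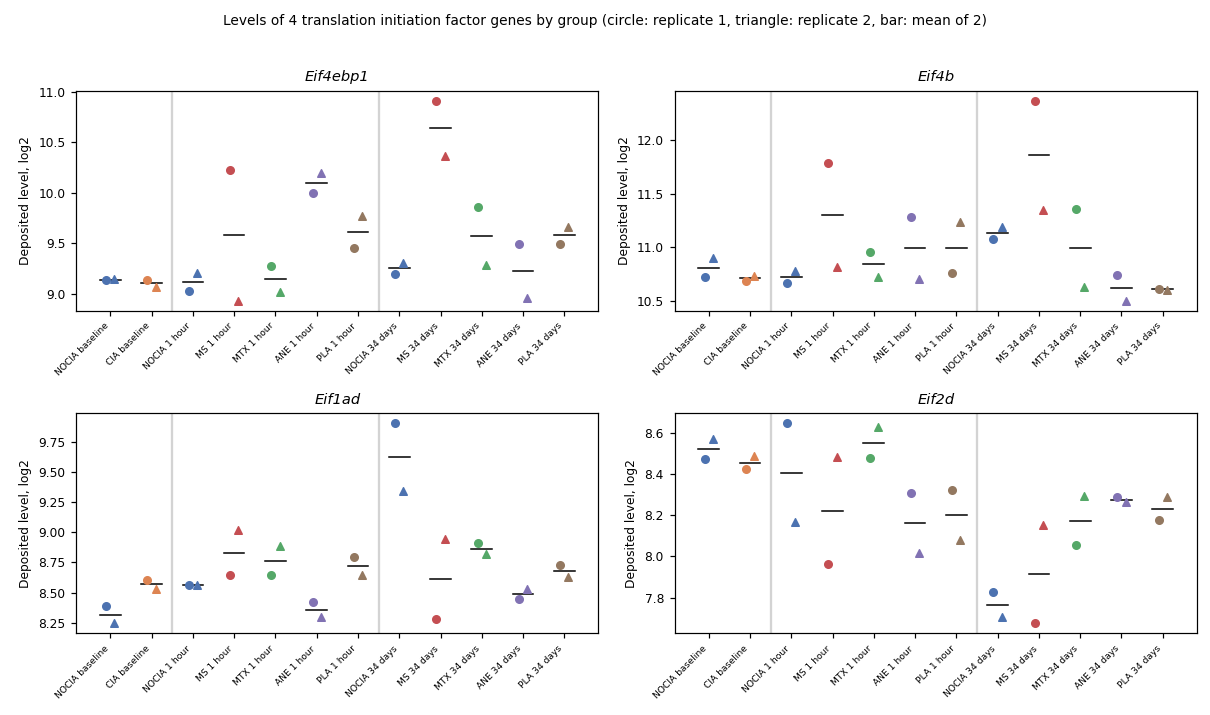
Deposited log2 level (vertical axes, scaled per gene) of Eif4ebp1, Eif4b, Eif1ad and Eif2d in each of the 12 groups (horizontal axes), with a circle for replicate 1, a triangle for replicate 2 and a bar for the mean of 2. Eif4ebp1 was highest in MS at 34 days (10.92 and 10.37), Eif1ad in NOCIA at 34 days (9.90 and 9.34), and Eif2d was low in NOCIA at 34 days (7.83 and 7.70).

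The promoters of Eif1ad and Eif2d are shown because these genes were called in opposite directions in the same comparison. Each is the 250 bases before the RefSeq start on the plus strand of GRCr8, Eif1ad at chr1:212103465-212103714 and Eif2d at chr13:45167927-45168176. Capitals mark CCGGAAGT, the letters that ETS family factors bind, searched on both strands. Promoters were found for 41 of the 45 members.
Eif1ad: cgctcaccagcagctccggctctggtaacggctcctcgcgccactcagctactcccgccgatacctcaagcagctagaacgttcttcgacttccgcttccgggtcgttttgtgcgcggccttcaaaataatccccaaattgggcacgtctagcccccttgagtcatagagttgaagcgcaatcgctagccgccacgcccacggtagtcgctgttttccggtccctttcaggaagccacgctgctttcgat
Eif2d: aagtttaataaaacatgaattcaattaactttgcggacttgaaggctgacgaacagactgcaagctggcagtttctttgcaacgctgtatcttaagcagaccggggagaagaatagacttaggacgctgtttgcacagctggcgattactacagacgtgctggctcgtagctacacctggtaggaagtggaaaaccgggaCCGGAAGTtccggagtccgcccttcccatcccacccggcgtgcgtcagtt
The letters were in the Eif2d promoter and not in that of Eif1ad, and 58.4% of the Eif1ad bases and 50.8% of the Eif2d bases were G or C.

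Over windows of 300 bases, from 250 before to 50 after the start, CCGGAAGT was found in 10 of the members' 44 promoters (22.7%), against 3.81% of all 33469 promoters and 6.38% of the 13193 promoters of genes on the array. The E-box CACGTG, which reads alike on both strands and is bound by MYC among others, was found in 9 of 44 (20.5%), against 6.42% and 8.65%. These shares describe letters in a window and no binding. The E-box stretches of 5 members, including 2 eIF3 genes and the cap-binding gene, are shown with 12 bases to either side and the E-box in capitals.
Eif1b, chr8:129081092-129081121, plus strand: ggaacgtgtggtCACGTGgcggcggcgcgc
Eif3b, chr12:19334808-19334837, minus strand: actcgctgcacgCACGTGgctccgcgctag
Eif3f, chr1:172368991-172369020, plus strand: caagatatgggtCACGTGgtacaaatttag
Eif4e, chr2:229740661-229740690, plus strand: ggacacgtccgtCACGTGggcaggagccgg
Eif4g1, chr11:93746404-93746433, minus strand: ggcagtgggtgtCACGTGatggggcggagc
Only E-boxes with at least 12 bases between them and the start were listed. This leaves out that of Eif3a, which lay nearer the start or after it. Of those listed, these 5 were chosen because an E-box began nearest the start, between 54 and 80 bases before it. Eif4e held another at 237 bases, and the E-boxes of Eif4h, Eif5a and Eif5a2 began 168, 206, 196 and 171 bases before the start, Eif5a2 having 2. In MS at 34 days the 9 tested members with an E-box had a median difference of -0.47 and the 31 without one -0.63. In NOCIA at 34 days the medians were 0.13 and 0.19. For CCGGAAGT the medians with and without it were -0.36 (10 genes) and -0.66 (30 genes) in MS, and 0.24 and 0.09 in NOCIA.

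Other members lay higher in healthy rats at 34 days without being called. Eif2s2, the beta subunit of eIF2, was at 11.64 and 11.22 against 10.55 and 10.46 at baseline (0.93 ± 0.33, adjusted p = 0.0881). Eif2a, which can deliver the initiator tRNA by another route, was at 9.45 and 9.12 against 8.47 and 8.40 (0.85 ± 0.40, adjusted p = 0.212). Eif4a3, the helicase of the exon junction complex, was at 10.91 and 10.81 against 10.21 and 10.13 (0.69 ± 0.30, adjusted p = 0.166). In each of the 3 genes both later arrays were above both baseline arrays.

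Without the 4 arrays that stood apart 8 members were called in healthy rats, which were Eif1a, Eif1ad, Eif2a, Eif2d, Eif2s2, Eif2s3, Eif4a2 and Eif4a3. Array weights gave 10 calls and a fit of the 2 groups alone 9. Over all probe sets 30.4%, 34.4% and 33.8% were called under these 3 settings, so the members' counts were below the background. Of the eIF3 genes 6 were above and 5 below 0, from Eif3c (-0.36 ± 0.32) to Eif3a (0.45 ± 0.38), and of the eIF2B genes 2 were above and 3 below. Both later arrays were higher for 23 of 44 members, against 31.7% of all probe sets, and lower for 5, against 34.3%. At an unadjusted p under 0.05 there were 3 higher members and 1 lower, against 24.3%. Probe sets disagreed for Eif4g1, which differed by -0.09 at its brightest and by 0.93 ± 0.29 at another that was called (adjusted p = 0.0478). B cell markers (mean of 7 genes) lay at 0.86 and 0.88 at baseline and at -0.77 and -0.69 at 34 days, with 6 of 7 called lower. NK cell markers (11 genes) lay at 0.47 and 0.37 and then at -1.12 and -0.80, with 3 called lower. T cell markers (17 genes) lay at 0.40 and 0.46 and then at -0.11 and -0.34, with 16 of 17 below 0 and 2 called lower. Platelet markers (18 genes) lay at -0.37 and -0.14 and then at 0.01 and 0.20, with 0 called by limma and 0 at an unadjusted p under 0.05. The part of these cells in the members' levels was not tested.

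Whether the 34-day change differed from that of healthy rats was tested for each arm. Eif1ad differed in ANE, by -1.38 ± 0.31 (95% interval -2.04 to -0.73, adjusted p = 0.0289), the 1 member called beside 2.86% of all probe sets. Its estimate was -1.26 ± 0.31 in MS, -1.01 ± 0.31 in MTX and -1.19 ± 0.31 in PLA (adjusted p = 0.110, 0.405 and 0.176). The 4 estimates share the same NOCIA and CIA baseline arrays. In ANE the call was lost when any 1 of 7 of the 8 arrays was left out (adjusted p = 0.0745 to 0.173), NOCIA 34-day replicate 2 being the exception.

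The same test gave 0 called members in MS, MTX and PLA, against 0.0338%, 0.0242% and 0.00967% of all probe sets. In MS the member median was -0.75, with 14 lower members and 1 higher at an unadjusted p under 0.05, against 19.9% of all probe sets. Eif4ebp1 was highest (1.43 ± 0.46, adjusted p = 0.152) and Eif2a lowest (-1.79 ± 0.57, adjusted p = 0.149). Eif2a lay at 7.34 and 8.57 in MS and at 8.68 and 9.11 in CIA baseline, beside the healthy values above. Eif2a was also lowest in MTX (-1.26 ± 0.57), ANE (-1.51 ± 0.57) and PLA (-1.21 ± 0.57), where Eif2d was highest (0.47 ± 0.30, 0.58 ± 0.30 and 0.53 ± 0.30). The numbers of members at an unadjusted p under 0.05 there were 3, 5 and 2, all lower, against 7.5%, 15.8% and 9.8% of all probe sets. Without MS 34-day replicate 1 the MS median was -0.28.

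One hour after the start of therapy limma called 0 members in each arm. At an unadjusted p under 0.05 there was 1 lower member in MS, 1 higher and 2 lower in ANE, 1 higher in NOCIA and 0 in MTX and PLA. The shares of all probe sets were 8.3% in MS, 10.8% in ANE, 3.57% in NOCIA, 1.24% in MTX and 6.89% in PLA. In MS the member median was -0.35, with 37 of 44 below 0, beside 56.97% of all probe sets below 0. Eif4b was highest (11.78 and 10.82 against 10.69 and 10.74, 0.59 ± 0.34) and Eif2s1 lowest (8.53 and 9.70 against 9.84 and 9.89, -0.75 ± 0.34). Both genes had an adjusted p = 0.550. In both genes replicate 1 lay farther from the baseline arrays than replicate 2. The call share over all probe sets was 0.00967%. The median turned to 0.08 without replicate 1 and was -0.78 without replicate 2, in which case 10 members and 18.8% of all probe sets were called.

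In ANE at 1 hour the median was -0.31, with 40 of 44 below 0, beside 56.03% of all probe sets below 0. Of all probe sets 0.0338% were called. Eif4ebp1 was highest (10.00 and 10.19 against 9.14 and 9.07, 0.99 ± 0.33, adjusted p = 0.394), and both arrays were above baseline. Eif2a was lowest (7.73 and 8.21 against 8.68 and 9.11, -0.92 ± 0.40, adjusted p = 0.441), and both arrays were below. Without the 4 arrays that stood apart, which leaves 1 ANE array, Eif4ebp1 (1.09) and Eif4a2 (-0.72) were called, beside 5.08% of all probe sets.

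PLA at 1 hour had a median of -0.24, from Eif3m (11.52 and 11.17 against 11.81 and 12.02, -0.57 ± 0.34) to Eif4ebp1 (9.45 and 9.78 against 9.14 and 9.07, 0.51 ± 0.33), and 0% of all probe sets were called. Both genes were without overlap between the groups. MTX at 1 hour had a median of 0.03 with 0.0145% of all probe sets called, and its members ran only from Eif3j (9.29 and 9.36 against 9.52 and 9.46, -0.16 ± 0.27) to Eif5b (8.45 and 8.67 against 8.31 and 8.35, 0.23 ± 0.31). NOCIA at 1 hour had a median of 0.03 against NOCIA baseline with 0.00483% called. It ran from Eif4g1 (8.62 and 7.87 against 8.50 and 8.96, -0.49 ± 0.25) to the cap-binding repressor gene Eif4e2 (9.82 and 10.10 against 9.60 and 9.53, 0.40 ± 0.17). Groups overlapped for Eif4g1 and not for Eif4e2.

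Before therapy the CIA rats differed little from NOCIA rats in these genes. The median was 0.12, with 35 of 44 members above 0 in CIA, beside 48.67% of all probe sets below 0 and their median of 0.01. Eif2a was highest, at 8.68 and 9.11 in CIA and 8.47 and 8.40 in NOCIA (0.46 ± 0.40). Eif4g1 was lowest, at 8.26 and 8.48 against 8.50 and 8.96 (-0.36 ± 0.25). The groups did not overlap for either gene, and 0 members were called or had an unadjusted p under 0.05, beside 0.00483% of all probe sets called and 3.81% at that unadjusted p. Over all 12 groups the F test called 0 members and 2.26% of all probe sets, and the lowest adjusted p among members were 0.0770 for Eif1ad and 0.111 for Eif4ebp1.

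**Figure D4:**
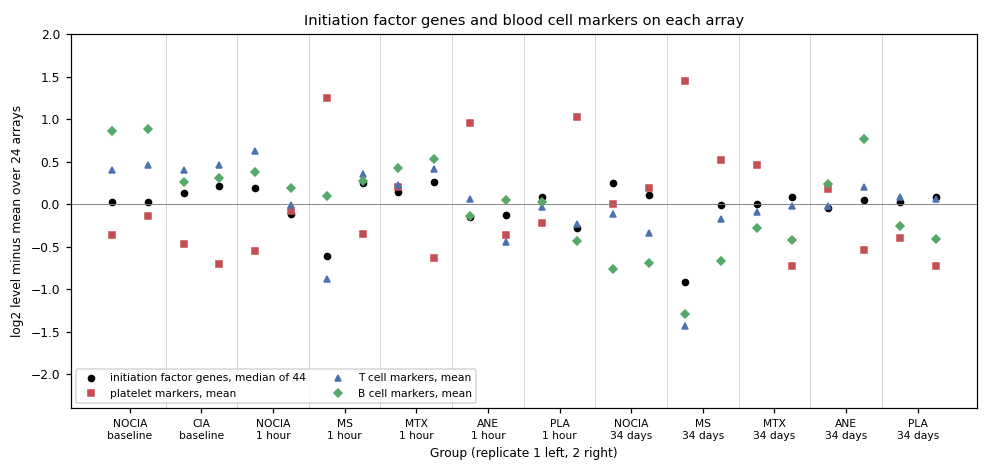
Log2 level minus the mean over 24 arrays (vertical axis) on each array (horizontal axis, 2 per group) for the median of 44 initiation factor genes and for the mean of the platelet, T cell and B cell markers. The members' median was lowest in MS 34-day replicate 1 (-0.91), where platelet markers were highest (1.45) and T cell markers lowest (-1.43). Monocyte and neutrophil markers, not drawn, lay at -1.24 and -1.11 in that array.

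The pathways that act on initiation were read from 3 lists of other genes. The first held the eIF2 kinases and the integrated stress response, 13 genes tested. In NOCIA at 34 days 4 of the 13 rose and 0 fell, beside 12% of all probe sets called. The list median was 0.68, beside -0.02 over all probe sets. The transcription factor Atf4 rose by 0.89 ± 0.18 (adjusted p = 0.00568), from 11.80 and 11.74 to 12.66 and 12.65. Among genes it is known to act on, 3 were called: Ddit3, the CHOP gene, rose by 1.79 ± 0.35 (adjusted p = 0.00385), the pseudokinase gene Trib3 by 1.54 ± 0.27 (0.00205), and Chac1, which degrades glutathione, by 1.21 ± 0.21 (0.00182). Another, the asparagine synthetase gene Asns, lay at 7.79 and 8.26 against 8.39 and 8.47 at baseline (-0.41 ± 0.59, adjusted p = 0.796) and was not called. For each of the 4 called genes both later arrays were above both baseline arrays. The lowest of the list was the kinase gene Eif2ak1 (-0.65 ± 0.25, adjusted p = 0.108). The Trib3 and Chac1 calls held with each array left out. The call of Atf4 was lost without baseline replicate 2 (adjusted p = 0.0582) or 34-day replicate 1 (0.0559), and that of Ddit3 without baseline replicate 1 (0.0513) or 34-day replicate 1 (0.0635).

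In MS at 34 days 2 of the 13 rose, Ddit3 by 1.88 ± 0.35 (adjusted p = 0.0233) and Chac1 by 1.05 ± 0.21 (0.0262), and 0 fell, beside 6.96% of all probe sets called. Ddit3 lay at 10.66 and 9.61 in MS against 8.32 and 8.19 in CIA baseline, and Chac1 at 7.31 and 7.22 against 6.08 and 6.35. Neither gene overlapped between the groups, and Atf4 differed by 0.23 ± 0.18. At 34 days both genes also lay above both CIA baseline arrays in MTX (Ddit3 9.51 and 9.10, Chac1 6.83 and 6.87). They did so in PLA as well (Ddit3 8.82 and 8.78, Chac1 6.70 and 6.74). In ANE Chac1 lay above them (6.53 and 6.38) and Ddit3 did not (8.22 and 8.04). Of the 13 genes 0 were called in each of these arms, beside 0% of all probe sets. The list median in MS was 0.05, and its lowest gene was the kinase gene Eif2ak3 (-1.24 ± 0.40, adjusted p = 0.0606). Both calls were lost without MS replicate 1 (Ddit3 1.36, adjusted p = 0.316, and Chac1 1.00, 0.308) and without either CIA baseline array (adjusted p = 0.167 to 0.197).

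Atf4, Ddit3 and Trib3 also differed in the 34-day change of ANE from that of NOCIA, by -1.04 ± 0.26, -1.92 ± 0.49 and -1.52 ± 0.38 (adjusted p = 0.0458, 0.0494 and 0.0445). In ANE at 34 days Atf4 lay at 12.20 and 12.11 and Ddit3 at 8.22 and 8.04, below both CIA baseline arrays for Atf4 and below or between them for Ddit3. Each of these 3 calls was lost when any 1 of the 8 arrays was left out (adjusted p = 0.0756 to 0.228).

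**Figure D5:**
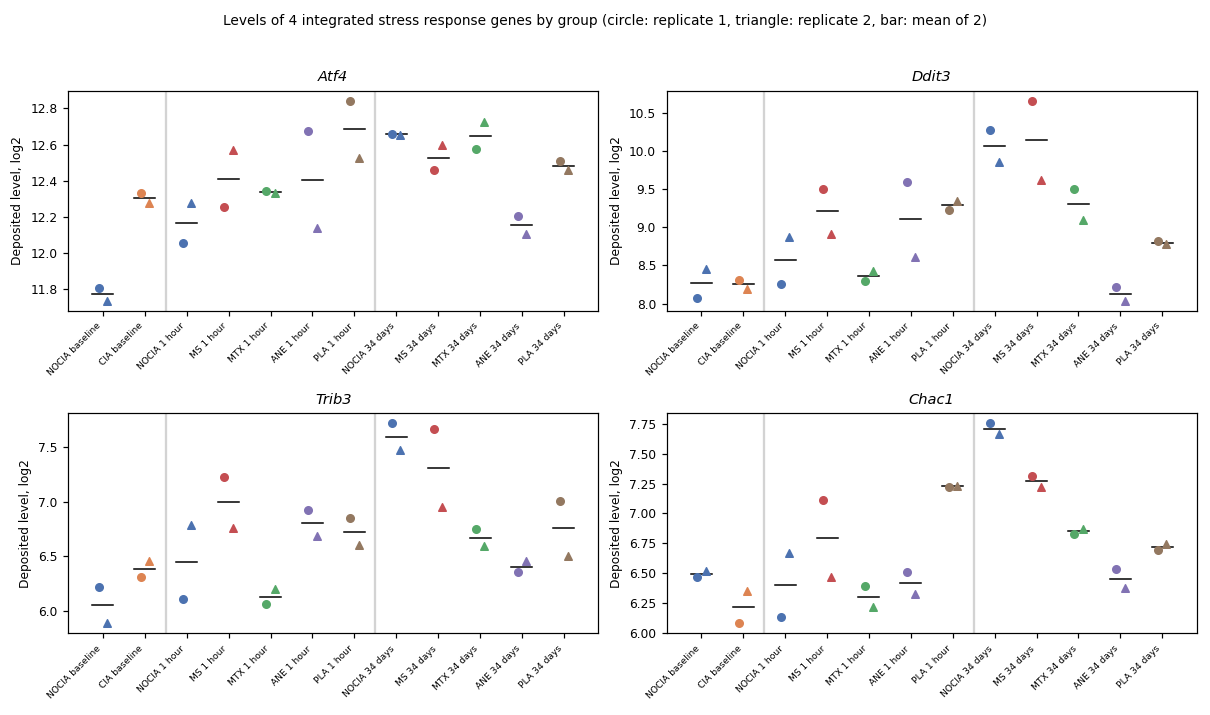
Deposited log2 level (vertical axes, scaled per gene) of Atf4, Ddit3, Trib3 and Chac1 in each of the 12 groups (horizontal axes), with a circle for replicate 1, a triangle for replicate 2 and a bar for the mean of 2. In NOCIA all 4 genes were higher at 34 days than at baseline, as for Atf4 (12.66 and 12.65 against 11.80 and 11.74).

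The second list held mTOR and the control of eIF4E, 13 genes tested. In MS at 34 days 1 fell and 0 rose, beside 6.96% of all probe sets called, with a median of -0.53. Mknk2, a kinase of eIF4E, fell by 1.07 on the log2 scale with an SE of 0.26 (adjusted p = 0.0376). It lay at 8.48 and 9.04 in MS against 9.85 and 9.82 in CIA baseline. At 34 days it also lay below both baseline arrays in MTX (9.07 and 9.63) and PLA (9.52 and 9.46). In ANE it lay above them (9.88 and 9.89). In each of these arms 0 genes of the list and 0% of all probe sets were called. The lowest gene was Pdcd4, an inhibitor of eIF4A (-1.33 ± 0.44, adjusted p = 0.0635), and the highest was the mTOR partner Rptor (1.92 ± 0.70, adjusted p = 0.0758). In NOCIA at 34 days, where 12% of all probe sets were called, 0 of the 13 were called, with a median of 0.01. An unadjusted p under 0.05 was reached by 1 of them. Mknk2 lay at 9.11 and 9.45 there, below both NOCIA baseline arrays (9.82 and 10.04).

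The third list held elongation and termination factors and partners of the messenger RNA, 18 genes tested. In MS at 34 days 1 of 18 fell and 0 rose, which is no more than the 6.96% of all probe sets called, and the median was -0.64. The release factor gene Gspt1 fell by 0.84 with an SE of 0.18 (adjusted p = 0.0287). It lay at 8.52 and 8.65 in MS against 9.49 and 9.36 in CIA baseline. The other arms at 34 days also lay below both baseline arrays. Gspt1 was at 8.82 and 8.65 in MTX, 9.09 and 9.22 in ANE and 8.55 and 8.81 in PLA. In each of these arms 0 genes of the list and 0% of all probe sets were called. In NOCIA at 34 days 1 fell and 1 rose, beside 12% of all probe sets called. Gspt1 fell again, by 1.11 with an SE of 0.18 (adjusted p = 0.00127), from 9.85 and 9.81 to 8.79 and 8.65. Etf1, which encodes its partner eRF1, rose by 1.59 ± 0.32 (adjusted p = 0.00464), from 8.72 and 8.91 to 10.56 and 10.25. The other 16 genes were not called, and the list median was 0.06. The Etf1 call was lost without 34-day replicate 1 (adjusted p = 0.0682). Etf1 also differed in the 34-day change of ANE from that of NOCIA, by -1.76 ± 0.45 (adjusted p = 0.0487), a call lost without any 1 of the 8 arrays (0.0797 to 0.215). The Mknk2 and Gspt1 calls in MS were lost without MS replicate 1 (adjusted p = 0.478 and 0.327), either CIA array (0.173 to 0.197) or the 4 arrays together (0.0832 and 0.0661).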

How the data were processed

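The deposited values are log2 expression levels of 31099 probe sets on 24 arrays. The labels say the authors made them with RMA and affy (no versions in the sources used here), whereas the methods of the study describe MAS5 intensities with detection calls. Their range (2.18 to 15.02) and close array medians (5.49 to 5.58) led to their use as normalized log2 values. The number of arrays limits the precision. The platform annotation gave 1 symbol for 20832 probe sets, several for 436 and none for 9831. The 5 probe sets shared by an Eif gene and another gene, among them those of Eif5 and Eif3e, were not used.

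A probe set was tested if at least 2 arrays had it above their 40th percentile, leaving 20690 after removal of 57 controls. limma 3.58.1 (R 4.3.3, lmFit and eBayes) was fitted with a coefficient per group over 24 arrays (12 residual degrees of freedom). Benjamini-Hochberg adjustment ran over all probe sets within each of 14 comparisons of 2 groups, 4 differences of changes and 1 F test. The pooled spread carries the p-values, since exact permutation of 2 against 2 arrays reaches no lower than 0.333. The steps were tested on simulated data. Members, lists and tests were chosen with earlier results of these data known. Array values are given for called members, for the highest and lowest member of a comparison, for the brightest and dimmest, and for others chosen after their values were seen. List genes were named when called or at an end of their list, and Atf4 in MS and Asns were chosen after their values were seen. Same-numbered replicates came from separate rats, and their deviations correlated between -0.76 and 0.80 over 66 pairs of groups (over 0.1 in 25), so the numbers do not pair. The alternatives run were the compared groups alone, a replicate block, no filter, a filter at the 60th percentile, quantile normalization, robust limma-trend, array weights, leaving out each array or the 4 that stood apart, and other probe sets. Promoters are RefSeq sequences of GRCr8. Promoters were searched with Python 3.11.15 and pandas 2.3.3, and figures drawn with matplotlib 3.10.9.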

Additional observations from a re-analysis of the deposited data

Results flagged for a closer look

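Eif1ad differed in its 34-day change between 2 groups of rats, by a test of the difference itself. The change in ANE minus that in NOCIA was -1.38 ± 0.31 (adjusted p = 0.0289). It lay at 9.90 and 9.34 in NOCIA at 34 days against 8.39 and 8.25 at baseline, and in ANE at 8.45 and 8.53 against 8.61 and 8.53. Eif1ad was chosen for this test among 44 members. Its estimates in MS, MTX and PLA, given above, had the same sign and were not called. All these estimates share the NOCIA and CIA baseline arrays. The call in ANE was lost when nearly any single array was left out. The ANE rats had arthritis and another anaesthetic, and the share of each in the difference cannot be told apart.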

How the results depend on the processing

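The count of called members depended on single arrays. In MS at 34 days the 1 called member became 3 with a replicate block (the numbers do not pair the rats), 2 with quantile normalization or all probe sets of each gene averaged, 0 with array weights or only the groups compared, and 0 to 35 when 1 array was left out. In NOCIA at 34 days 2 became 10 with array weights, 8 without the 4 arrays and 9 with only the groups compared. These stood beside 34.4%, 30.4% and 33.8% of all probe sets called. Fewer members were called when any 1 array was left out. For the change in ANE against NOCIA 1 became 13, 7 and 10 under those 3 settings, and it did not increase when 1 array was left out. For MTX 0 became 4, 3 and 1, and for PLA 0 became 8, 5 and 7. Leaving out 1 array gave 0 to 10 in MS at 1 hour, 0 to 31 in MS minus PLA, 0 to 27 in MS minus MTX and 0 to 27 in the change in MS. ANE at 1 hour went from 0 to 2 without the 4 arrays. The F test gave 1 with quantile normalization and 6 with array weights. No share of all probe sets stands beside these F test counts, so they are not read as a result about the members. For MS at 34 days a replicate block, quantile normalization and averaged probe sets called 9.45%, 6.26% and 6.96% of all probe sets. Array weights and the compared groups alone called 0% there. Over all probe sets array weights, leaving out the 4 arrays and the compared groups alone called 23.4%, 18.3% and 20.8% for the change in ANE, 8.92%, 5.65% and 5.57% for MTX and 16.4%, 9.2% and 14.5% for PLA. Without MS 34-day replicate 2 they were 39.2% for MS minus PLA, 34.7% for MS minus MTX and 29.5% for the change in MS. The cause was not tested. The replicate block changed no other count of called members. Member medians moved by less than the spread between replicates in 235 alternative values and by more in 15, all of comparisons with MS. Of the named genes' differences 382 kept their side of the threshold, 86 lost a call, 24 gained one and 0 changed sign. With 2 arrays per group the precision is low.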
